A study of Mus musculus with 7 samples.

Results

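The replication-dependent histone genes are the multicopy genes that supply most of the histone protein laid onto DNA during S phase. They were taken as every gene whose symbol starts with Hist1h, Hist2h, Hist3h or Hist4h and that had at least 10 unique molecular identifiers (UMIs, 1 per captured mRNA molecule) over all 7 libraries, which gave 63 of the 27998 genes in the tables. In all, 69 genes carry such a symbol. The 6 below the minimum were Hist1h2ba and Hist1h2bq with 0 UMIs, Hist1h2ah and Hist1h2br with 2 each, Hist1h2aa with 3 and Hist1h1t with 4, and the lowest members inside it were Hist2h2ab with 12 UMIs and Hist1h2ad with 13. The members were 5 genes for the linker histone H1, 17 for H2A, 16 for H2B, 12 for H3 and 13 for H4. Of these, 49 belonged to the Hist1 cluster, 11 to Hist2, 2 to Hist3 and 1 to Hist4, and the symbol Hist2h2bb stands for 2 of them.

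Levels were followed in myogenic cells of 4 groups of mice, all labelled as strain C56BL/6J. For total muscle (2 libraries), hindlimb muscle of wild-type mice aged 3 months was digested and live cells were kept by sorting. Homeostatic MuSCs (2 libraries) are muscle stem cells sorted from muscle for which the labels give neither an injury nor an age. Injured MuSCs (2 libraries) were sorted from TE-EDL muscles 60 h after notexin (2 µM), a myotoxic venom phospholipase, had been used to injure them, and no age is labelled. Primary myoblasts (1 library) came from hindlimbs of wild-type mice aged 3 months and were grown on collagen in medium with 2.5 ng/µl bFGF and 10% horse serum, for 4 passages by one label and 4 to 5 by another. No label says which animals, or how many, stand behind a library, so the spread between 2 libraries may be technical. Single cells were captured with a droplet kit that primes on poly(A) tails and reads mRNA 3' ends.

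Cells were clustered, and the clusters called myogenic-like from a fixed list of 12 markers held 4390 primary myoblasts, 1151 and 1877 cells from injured muscle, 1502 and 1377 homeostatic cells and, in total muscle, 91 and 128 cells. They carried between 323896 UMIs (total muscle 1) and 113253474 UMIs (primary myoblasts). The 2 injured libraries shared 247 cell barcodes, 19.9% of the cells of the first and 11.2% of those of the second, whereas no other pair of libraries shared more than 15. The injured libraries also stood apart in genes whose symbols end in "-ps", a suffix of pseudogenes, and these took 1.11% and 1.36% of their myogenic UMIs against 0.0812% to 0.135% in the total muscle and homeostatic libraries and 0.00608% in myoblasts. Whether those 2 libraries were counted with another reference or setting is not given in the sources used here and was not tested, and it bears on the level there of every gene with copies or pseudogenes. Of the 3028 injured myogenic-like cells, 2845 (94.0%) lay in clusters with no myogenic marker among the 10 leading genes, where mitochondrial and "-ps" genes led. These clusters were named from 6 and 7 raised markers, and all 12 myogenic markers had UMIs in both injured libraries, summing to 1855 and 2211 CPM. Of the 4390 primary myoblasts, 1482 (33.8%) lay in another cluster with no myogenic marker among the 10 leading genes, named from 7 raised markers. Results that these features touch are given with the matching values below.

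Core histones H2A, H2B, H3 and H4 form the octamer that DNA wraps around, and H1 binds the linker between octamers. Most replication-dependent histone mRNAs do not receive a poly(A) tail. They end shortly after a stem-loop that the stem-loop binding protein Slbp holds, and they are made in S phase and degraded when DNA synthesis stops. Some of these genes also give polyadenylated mRNA, in particular in cells that leave the cell cycle. A kit that primes on poly(A) therefore catches an unknown and gene-specific share of the mRNA, and the values here are captured levels. For that reason levels are compared between samples and not read as the abundance of one histone mRNA against another.

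The stem-loop is shown first, since mRNAs cut just after it lack the tail on which such a kit primes. A search of the reference transcripts (GENCODE M21, build GRCm38, which is the assembly mm10) for a 6-base stem with a 4-base loop found it in 44 members, starting 22 to 59 bases after the stop codon, in 8 forms. The form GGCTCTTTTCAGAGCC was in 25 members and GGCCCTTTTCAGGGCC in 7. The lines below give the 16 bases of the stem-loop in capitals with their flanks, as DNA letters of the mRNA strand, for the highest members of which the model holds one.
Hist1h1c: aaGGCTCTTTTCAGAGCCaccactcccact
Hist1h1e: aaGGCTCTTTTCAGAGCCacccacaactct
Hist1h2ap: aaGGCTCTTTTCAGAGCCatc
Hist3h2a: aaGGCTCTTTTCAGAGCCacccacaacctc
Hist1h2ae: aaGGCTCTTTTCAGAGCCattcacttaatt
Hist1h4i: aaGGCCCTTTTTAGGGCCaccacaaaatca
What follows the stem-loop differed. The Hist1h2ap model ended 3 bases after it, whereas the models of Hist1h2ae, Hist1h4i, Hist1h1c, Hist1h1e and Hist3h2a ran on for 151, 330, 840, 1153 and 1643 bases. In all, 22 members had models that ran on for more than 80 bases, and 22 had models that ended closer to the stem-loop. A further 12 models stopped at the end of the coding sequence, Hist1h1b among them, so they say nothing on a stem-loop. The model of Hist1h2bc had 2 exons and no stem-loop in its spliced form. Hist1h2al and 1 of the 2 Hist2h2bb genes are annotated as noncoding. In the annotation, the single-exon gene Hist1h2ap spans chr13:21833026-21833507 (minus strand), Hist1h4i chr13:22040636-22041362 (minus strand), Hist1h2bc chr13:23684199-23692908 (plus strand) and Hist3h2a chr11:58954685-58956830 (plus strand).

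Many members cannot be told apart from others by their 3' ends. For 43 of the 63, the last 300 bases matched another annotated gene over at least 90 bases at 95% identity or more, Hist1h2ap matching 19 others and Hist1h2ae 10. How the counting divided reads between such copies is not given in the sources used here, so the level of a single member with copies is uncertain. The other 20, which include Hist1h1b, Hist1h1c, Hist1h2ac, Hist1h2bc, Hist1h4i and Hist3h2a, had no such match and are called members without copies. That holds for the annotated 3' end alone. Over the whole transcript 12 of these 20 matched another gene by the same limits, Hist1h4i 5 others, Hist1h2bc 12, Hist1h2ac 13 and Hist3h2a 1, and reads from an end further upstream could fall there. The 8 without a match anywhere were Hist1h1a, Hist1h1b, Hist1h1c, Hist1h1d, Hist1h4d, Hist2h2ab, Hist2h2be and Hist2h4.

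Most members lie in the Hist1 cluster on chromosome 13, many in divergent pairs, and their promoters share short elements. Of 57 members found in the RefSeq promoter table (GRCm38.p6, 250 bases before to 50 after the start), 48 (84.2%) held CCAAT on either strand, against 41.1% of all 27025 promoters, and 32 (56.1%) held TATAAA, against 15.7%. The octamer ATTTGCAT was in 12 (21.1%), against 1.97% of all, and these were 5 of 16 H2A and 7 of 14 H2B members and 0 of the 27 others. The 2 Hist2h2bb genes share 1 promoter window, which holds CCAAT and ATTTGCAT and is counted for both. AAACACA, the element found upstream of H1 genes, was in 4 of 5 H1 promoters, against 8.22% of all. A match is only a run of letters and is not a measured binding site. The windows below carry these 4 motifs in capitals on either strand; they show 2 H1 genes whose levels across cell tiers differed in direction in myoblasts, and the stretch between Hist1h2ac and Hist1h2bc, which start 251 bases apart in opposite directions. The windows are chr13:21780576-21780875 (minus strand) for Hist1h1b, chr13:23738557-23738856 (plus strand) for Hist1h1c and chr13:23683910-23684209 (minus strand) for Hist1h2ac.
Hist1h1b: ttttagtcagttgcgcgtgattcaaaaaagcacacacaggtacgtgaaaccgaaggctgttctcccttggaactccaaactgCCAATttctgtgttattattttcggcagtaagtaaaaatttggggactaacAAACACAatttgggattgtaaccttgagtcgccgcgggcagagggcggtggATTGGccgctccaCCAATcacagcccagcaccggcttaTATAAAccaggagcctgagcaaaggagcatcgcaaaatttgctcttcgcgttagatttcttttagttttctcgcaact
Hist1h1c: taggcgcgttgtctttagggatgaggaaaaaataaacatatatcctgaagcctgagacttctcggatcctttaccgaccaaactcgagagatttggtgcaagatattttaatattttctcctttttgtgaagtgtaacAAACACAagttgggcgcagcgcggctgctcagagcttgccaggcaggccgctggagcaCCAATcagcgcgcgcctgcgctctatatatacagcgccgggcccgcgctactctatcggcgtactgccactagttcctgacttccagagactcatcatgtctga
Hist1h2ac: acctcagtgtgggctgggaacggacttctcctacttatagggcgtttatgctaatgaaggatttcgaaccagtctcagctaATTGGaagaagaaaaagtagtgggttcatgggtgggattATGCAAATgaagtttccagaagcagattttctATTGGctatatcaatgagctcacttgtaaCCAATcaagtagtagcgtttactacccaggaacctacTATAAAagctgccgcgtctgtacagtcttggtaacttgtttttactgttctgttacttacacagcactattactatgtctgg

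Summed over the 63 members, histone mRNA made up 71.0 and 73.4 CPM (UMIs of a gene scaled to a common total of all UMIs) in the myogenic cells of total muscle 1 and 2, 93.3 and 62.9 CPM in homeostatic MuSC 1 and 2, 639 and 555 CPM in injured MuSC 1 and 2, and 310 CPM in primary myoblasts. Both injured libraries lay above all others, the myoblast library lay between, and the 4 libraries of uninjured muscle overlapped. Behind these values stand 23 and 33 histone UMIs in total muscle, 322 and 199 in homeostatic MuSCs, 5593 and 3636 in injured MuSCs and 35159 in myoblasts. Such sums do not tell fewer histone-expressing cells from less histone mRNA per cell. With so few UMIs, total muscle allows a reading of the sum and of few single members.

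**Figure D1:**
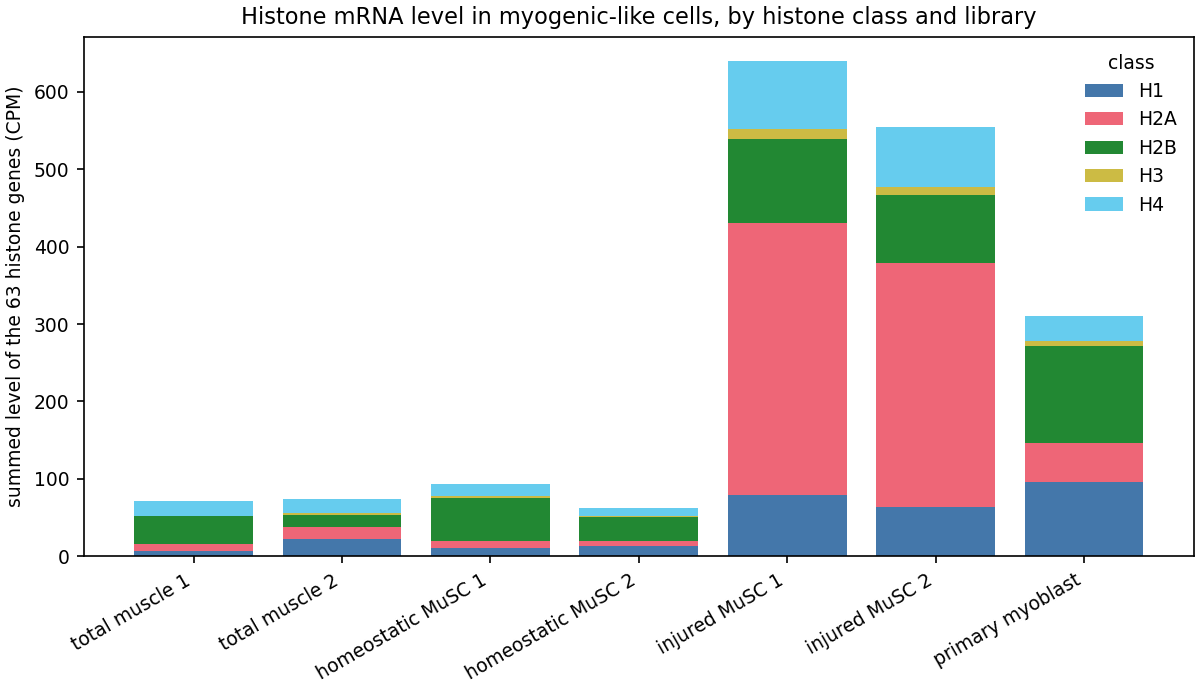
Summed level of the 63 members in myogenic-like cells, in CPM, for each of the 7 libraries, with each bar divided by histone class. The injured libraries reach 639 and 555 CPM with H2A as the tallest segment, and the myoblast bar of 310 CPM is mostly H2B and H1.

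The classes that made up the sum differed between the groups. H2B gave 59.6% and 48.7% of the histone UMIs of homeostatic MuSC 1 and 2 (exact 95% intervals 54.0% to 65.0% and 41.6% to 55.9%, which cover counting error only), nearly all from Hist1h2bc. In injured MuSCs H2A led with 55.0% and 56.8%, and 39.8% and 38.6% of all histone UMIs came from Hist1h2ap alone. In myoblasts H2B (40.3%) led, followed by H1 (30.8%), and H2A gave 16.4%. Captured H3 counts were low in every group, at most 12.3 CPM summed over its 12 members, so H3 members were seldom testable. Without Hist1h2ap the injured libraries summed to 385 and 340 CPM, still above the 310 CPM of myoblasts and above the uninjured libraries.

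Members were also grouped by the form of the annotated 3' end. Those whose model ended within 80 bases of the stem-loop, Hist1h2ap among them, gave 10.9% and 9.05% of the histone UMIs of homeostatic MuSC 1 and 2, 48.2% and 46.2% of those of injured MuSC 1 and 2 and 4.36% in myoblasts. Hist1h2ap carried that difference: without it, the other 21 members of the set gave 8.37% and 7.62% of all histone UMIs of the injured libraries. Members whose model ran on for more than 80 bases, such as Hist1h1c, Hist3h2a and Hist1h4i, gave 28.9% and 42.2%, 27.4% in each injured library, and 44.4% in myoblasts. By copies, the 20 members without a near-identical copy summed to 72.7 and 46.1 CPM at rest, 239 and 211 CPM after injury and 259 CPM in myoblasts, so that on these the myoblast library lay above both injured ones, and the 8 without a match anywhere summed to 10.1 and 11.4, 66.2 and 56.4, and 75.9 CPM. The 43 with copies summed to 20.6 and 16.7 CPM, 400.3 and 344 CPM and 51.8 CPM in the same order.

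Resting muscle stem cells carried a small set of histone mRNAs. Hist1h2bc, an H2B gene, stood at 54.2 and 28.8 CPM in homeostatic MuSC 1 and 2 and at 37.0 and 15.6 CPM in total muscle 1 and 2. The H1 genes Hist1h1c and Hist1h1e followed with 6.08 and 7.27 CPM and with 4.06 and 5.37 CPM in the homeostatic libraries, and the H2A gene Hist3h2a with 4.63 and 2.84 CPM. The H4 genes Hist1h4h (5.79 and 2.84 CPM) and Hist1h4d (3.19 and 3.79 CPM) were of the same order. In homeostatic MuSC 1 and 2, 28 and 20 of the 63 members had any UMI. Hist1h1b, an H1 gene of cycling cells, had 1 UMI in 1 homeostatic library and 0 in the other, and Hist1h2ap, Hist1h2ak, Hist1h2ag and Hist1h2ac had 0 in both.

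**Figure D2:**
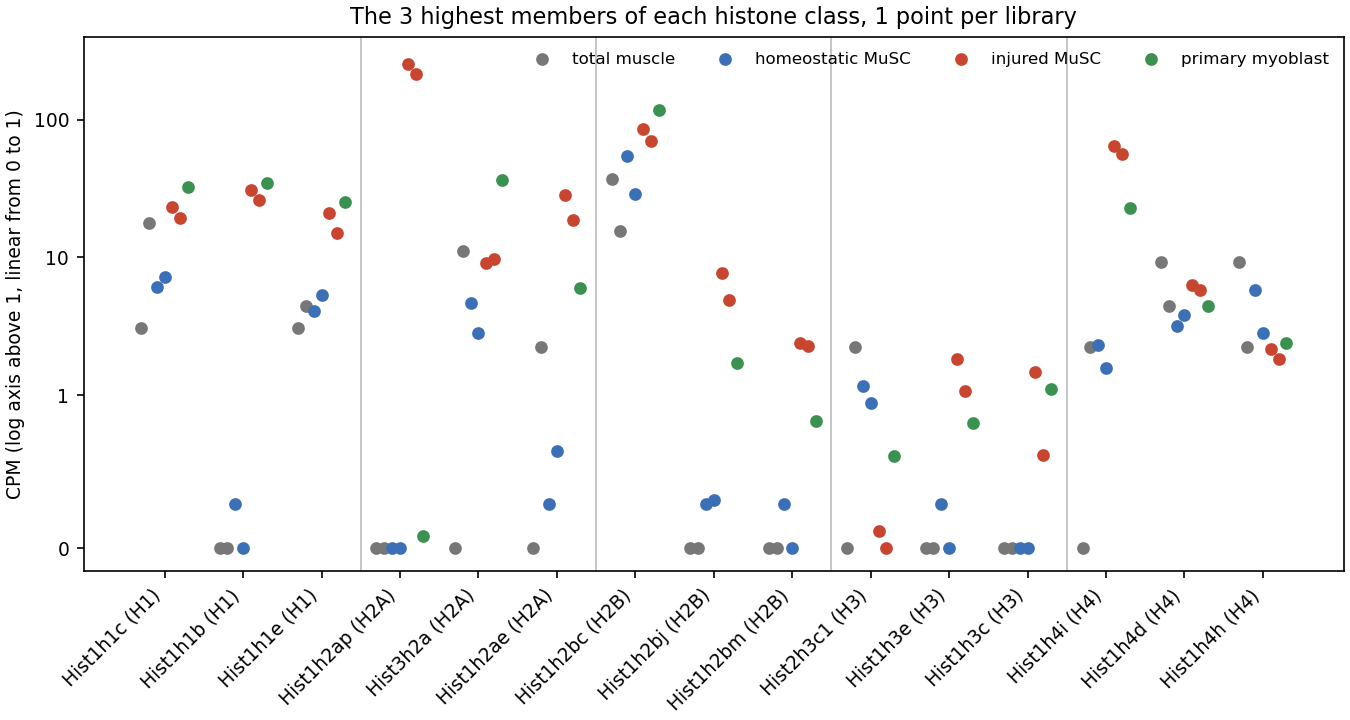
CPM of the 3 highest members of each class, 1 point per library, coloured by group, on an axis that is logarithmic above 1 CPM and linear below. Hist1h2bc is present in all 7 libraries, Hist1h1b is near 0 in the uninjured libraries and at 26.2 CPM or more in the others, and Hist1h2ap is high in the injured libraries alone.

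Sorted homeostatic MuSCs were compared with the myogenic cells of unsorted total muscle. The 2 groups shared clusters, in different proportions. In the same cluster lay 154 of the 219 myogenic-like cells of total muscle (70.3%) and 655 of 2879 homeostatic cells (22.8%). The median over all cells of that cluster was 776 UMIs, but total muscle was not the shallower group per cell. Myogenic-like cells had medians of 3411 and 3383 UMIs in total muscle 1 and 2. Those of homeostatic MuSC 1 and 2 had medians of 2287 and 2327 UMIs. Of the 63 members, 3 had enough counts to be tested (Hist1h2bc, Hist1h1c and Hist1h4h), and 0 were called in either direction by edgeR at an adjusted p under 0.05, against 4.94% higher, 4.55% lower and 9.49% either way of all 8030 genes tested. None of the 3 had an unadjusted p under 0.05, DESeq2 called 0 members as well, and the groups overlapped for all 3. The log2 fold changes were 0.67 (SE 0.43) for Hist1h2bc, -0.87 (SE 0.63) for Hist1h1c and -0.33 (SE 0.86) for Hist1h4h, with edgeR adjusted p values of 0.401, 0.458 and 0.877. The standard errors, from 0.43 to 0.86 on the log2 scale, limit what could be detected at this depth.

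After injury, H1, H2A, H2B and H4 mRNAs rose. Of 23 members with enough counts, 22 were called higher in injured than in homeostatic MuSCs and 0 lower, where 38.3% of all 10642 genes tested were called higher and 37.2% lower (75.5% either way). Members passed the count minimum mostly through their level in injured cells, so this count describes those members and not all 63. Their median log2 fold change was 4.95 against 0.03 over all genes tested, and 3.47 when the 8 members without a UMI in homeostatic MuSCs are set at the lower bound that 3 UMIs over the group allow. All 3 tested H1 genes, all 12 tested H2A genes and all 4 tested H2B genes were called, and 3 of 4 tested H4 genes. No H3 gene had enough counts.

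**Figure D3:**
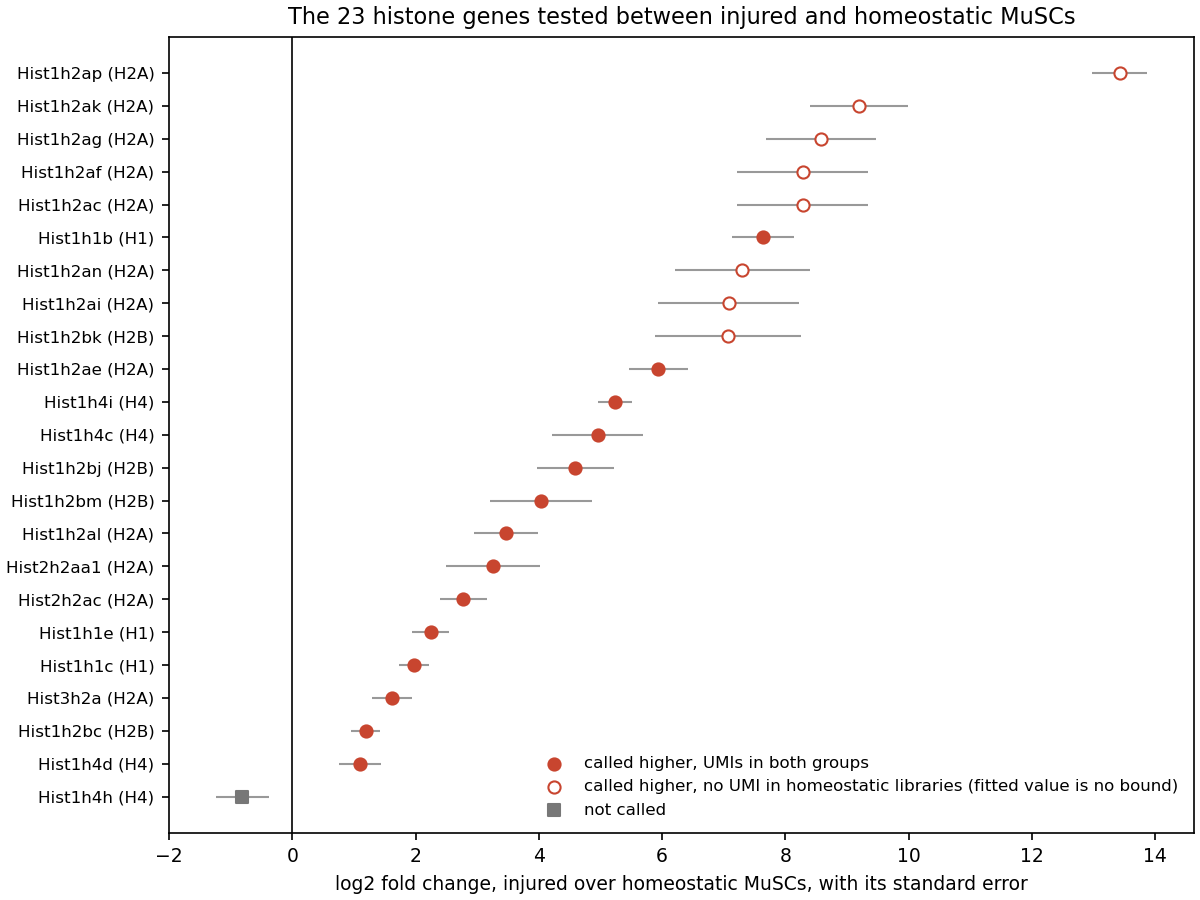
Log2 fold change with its standard error (edgeR) for the 23 tested members, injured over homeostatic MuSCs; open circles have no UMI in the homeostatic libraries, so that the fitted value is not a bound. Hist1h4h is the 1 member left of 0, and Hist1h2bc, present at rest, lies near the lower end of the called members.

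Among the H1 genes, Hist1h1b rose from 0.290 and 0 CPM in homeostatic MuSC 1 and 2 to 30.9 and 26.2 CPM in injured MuSC 1 and 2. By counts this was 442 UMIs against 1, a ratio of 191 with a 95% counting interval of 34.1 to 7562 (edgeR adjusted p = 1.68e-08). The other H1 genes started from a measured level. Hist1h1e went from 4.06 and 5.37 to 21.02 and 14.9 CPM (log2 fold change 2.24, SE 0.30, edgeR adjusted p = 1.38e-05). Hist1h1c went from 6.08 and 7.27 to 23.2 and 19.2 CPM (log2 fold change 1.97, SE 0.25, edgeR adjusted p = 9.15e-06). The groups did not overlap for any of these 3. Hist1h1a and Hist1h1d, with 30 and 22 UMIs in injured cells and 1 and 0 at rest, were too low to be tested.

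Among the H2A genes, Hist1h2ap went from 0 UMIs in both homeostatic libraries to 2226 and 1404 UMIs (254 and 214 CPM) in injured MuSC 1 and 2, at least 523-fold higher (edgeR adjusted p = 1.58e-10). Hist1h2ak, with 0 UMIs at rest, reached 11.5 and 13.6 CPM, at least 27.4-fold higher (edgeR adjusted p = 4.96e-07). Hist1h2ag and Hist1h2ac were at least 18.0-fold and 14.3-fold higher. These genes have no resting level that the depth can resolve. Hist1h2ae rose from 0.290 and 0.632 to 28.6 and 18.8 CPM, 373 UMIs against 3, a ratio of 53.7 with a counting interval of 18.2 to 262 (edgeR adjusted p = 1.25e-07). Hist2h2ac, of the Hist2 cluster, went from 1.74 and 1.58 to 8.34 and 10.5 CPM (log2 fold change 2.77, SE 0.38), and Hist3h2a from 4.63 and 2.84 to 9.14 and 9.76 CPM (log2 fold change 1.61, SE 0.32).

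Of the pair that shares the printed promoter stretch, Hist1h2bc went from 54.2 and 28.8 CPM to 85.0 and 69.9 CPM (log2 fold change 1.19, SE 0.23, edgeR adjusted p = 4.35e-04), without overlap of the groups. Its partner Hist1h2ac went from 0 UMIs to 44 and 55 UMIs. Hist1h2bj rose from 1 UMI in each homeostatic library to 68 and 32 UMIs, a ratio of 21.6 with a counting interval of 5.83 to 181. It is paired in the same way with Hist1h2ag, and here both partners were called. Among 9 divergent pairs in which both genes are members, these were the only 2 with both genes called; in 5 others 1 partner was called and the other had too few counts to be tested, and in 2 neither was tested.

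Among the H4 genes, Hist1h4i rose from 2.32 and 1.58 to 64.8 and 56.4 CPM (log2 fold change 5.23, SE 0.27, edgeR adjusted p = 2.42e-09). Hist1h4c rose from 1 UMI over the group to 38 and 30 UMIs, a ratio of 29.4 with a counting interval of 5.10 to 1178. Hist1h4d went from 3.19 and 3.79 to 6.28 and 5.796 CPM (log2 fold change 1.09, SE 0.34, edgeR adjusted p = 0.0104), a call that DESeq2 did not make (adjusted p = 0.142) and that was lost without injured MuSC 1 (adjusted p = 0.0814) or homeostatic MuSC 1 (adjusted p = 0.0648). Hist1h4h stood at 5.79 and 2.84 CPM at rest and at 2.171 and 1.83 CPM after injury, with a log2 difference of -0.81 (SE 0.44) that edgeR did not call (adjusted p = 0.106); without TMM scaling it was -1.11 and called lower (adjusted p = 0.0298). The median of all genes lies 0.30 lower without that scaling.

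The count depended on depth and on the libraries. With every cell thinned to 1000 UMIs, 11 members were called higher and 0 lower, all 11 among the 22. The rest of the 22 had too few counts there to be tested. Without injured MuSC 1 the number was 17 and without homeostatic MuSC 1 or 2 it was 32 in each case, with 1 call lower without homeostatic MuSC 2. Without the shared barcodes it was 20, since Hist1h2bm and Hist2h2aa1 had too few counts there to be tested. Members called higher only without a homeostatic library had too few counts for the main test. These numbers thus also follow which members pass the count minimum, and no share over all genes is given for them. The "-ps" genes moved in the same direction as the members, and 14 of the 22 called members have near-identical copies; 8 of 8 tested members without copies were called higher, with a median log2 fold change of 3.46, and so were 3 of 3 tested without a match anywhere, Hist1h1b, Hist1h1c and Hist1h4d. The part that the counting of copies takes in the values of Hist1h2ap and the other members with copies was not tested. Erythroid markers (5 genes) summed to 3806 and 923 CPM in the homeostatic libraries, with 0 of 5 markers at 0, and to 3.31 and 2.14 CPM in the injured ones, with 2 of 5 at 0. Sums for some other cell types were lower after injury as well. Lymphatic endothelial markers (6 genes) went from 1500 and 1696 to 199 and 236 CPM with 3 or 4 at 0 in each library. Glial markers (7 genes) went from 1122 and 1174 to 61.1 and 69.5 CPM with 1 at 0 at rest and 3 and 2 after injury. Fibro-adipogenic markers (10 genes) went from 913 and 951 to 93.5 and 107 CPM with 1 and 2 at 0 at rest and 0 after injury. Sums for others were higher after injury. Mature myofibre markers (10 genes) went from 20.6 and 35.4 to 246 and 362 CPM with 1 at 0 at rest and 2 and 1 after injury. Tenocyte markers (7 genes) went from 14.2 and 28.1 to 76.1 and 106 CPM with 1 at 0 at rest and 2 after injury. Epithelial markers (6 genes) went from 0.290 and 0.632 to 21.5 and 17.2 CPM with 5 at 0 at rest and 3 after injury. The part of these cell types in the result was not tested either. Medians of 7196 and 3111 UMIs per barcode in the injured libraries stand against 2245 and 2300 in the homeostatic ones.

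Cultured primary myoblasts were set against injured MuSCs. With 1 myoblast library the test assumes that it varies like the sorted groups. Of 36 tested members, 1 was called higher in myoblasts and 28 lower, where 34.2% of all 12439 genes tested were called higher and 25.5% lower (59.8% either way). A member could pass the count minimum through the injured libraries alone, as Hist2h2aa1 did with 0 UMIs in myoblasts, so these counts describe the 36 and not all 63. The median log2 fold change of the members was -2.64 against 0.20 over all genes. Counts of calls fell to 0 higher and 20 lower with DESeq2, were 3 higher and 24 lower without TMM scaling, and were 1 higher and 9 lower with cells thinned to 1000 UMIs and 1 higher and 17 lower without injured MuSC 1. With thinned cells some members, such as Hist1h2ac, had too few counts to be tested. Without TMM scaling the median of all genes lies 0.70 higher, and calls higher in myoblasts rise from 57.3% to 81.2% of all calls. With DESeq2 that share is 39.2%. Mature myofibre markers (10 genes) summed to 246 and 362 CPM in injured MuSC 1 and 2, with 2 and 1 at 0, and to 3486 CPM in myoblasts, with 0 at 0. Mural markers (8 genes) summed to 29.3 and 36.9 CPM, with 3 and 1 at 0, and to 1039 CPM, with 0 at 0. Their part in the result was not tested.

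The 5 H1 genes were not called between these groups. Hist1h1b stood at 34.7 CPM in myoblasts, next to 30.9 and 26.2 CPM in injured MuSCs (log2 fold change -0.42, SE 0.21, edgeR adjusted p = 0.1005), and without TMM scaling the value was 0.28. It was called lower without homeostatic MuSC 1 or 2 in the fit that shares the spread of all groups. Hist1h1c stood at 32.7 CPM and Hist1h1e at 25.2 CPM in myoblasts, above both injured libraries in CPM, with log2 fold changes of -0.08 (SE 0.21) and -0.22 (SE 0.23) that turn to 0.62 and 0.48 without TMM scaling; the first of these was then called (adjusted p = 0.0129).

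Core histone genes with copies were low in the myoblast library. Hist1h2ap had 9 UMIs (0.0795 CPM) in myoblasts against 254 and 214 CPM in injured MuSCs (log2 fold change -12.14, SE 0.37, edgeR adjusted p = 2.21e-14). Hist1h2al, annotated as a processed pseudogene, had 20 UMIs in myoblasts (0.177 CPM) against 7.08 and 12.8 CPM (log2 fold change -6.45, SE 0.49). Hist2h2aa1, an H2A gene of the Hist2 cluster, had 0 UMIs in myoblasts and 39 over the injured libraries, at least 96.2-fold lower. Of the 25 tested members with copies, 23 were called lower, and of the 11 without copies 5 were called lower and 1 higher, with medians of -3.73 and -1.10. Of the 6 tested without a match anywhere, 2 were called lower. The share of "-ps" genes differed in the same direction, 1.11% and 1.36% of UMIs in injured MuSCs against 0.00608% in myoblasts, and the part of copy counting in the values of members with copies was not tested.

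Among members without copies, Hist1h4i was lower in myoblasts, at 22.8 CPM against 64.8 and 56.4 CPM (log2 fold change -2.11, SE 0.21, edgeR adjusted p = 1.01e-07; -1.41 without TMM scaling). Hist1h2ac was at 0.671 CPM against 5.03 and 8.39 CPM (log2 fold change -3.99, SE 0.46). Hist1h4c was at 0.556 CPM against 4.34 and 4.58 CPM (log2 fold change -3.69, SE 0.50). Hist3h2a went the other way, with 36.7 CPM in myoblasts against 9.14 and 9.76 CPM in injured MuSCs (log2 fold change 1.26, SE 0.22, edgeR adjusted p = 9.48e-05), although DESeq2 gave an adjusted p of 0.0511. Hist1h2bc stood at 118 CPM against 85.0 and 69.9 CPM and was not called (log2 fold change -0.09, SE 0.24, edgeR adjusted p = 0.754); without TMM scaling it was 0.61 and called (adjusted p = 0.0282).

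Myoblasts against homeostatic MuSCs gave 13 members (36.1%) called higher and 4 (11.1%) lower of 36 tested. Of all genes tested, 39.5% were called higher and 32.3% lower (71.8% either way). The share of members called higher was thus near that of all genes. A member could pass the count minimum through the injured or myoblast libraries alone, so these counts describe the 36 and not all 63. Of the 36, 15 had 0 UMIs in 1 of the 2 groups. This comparison shares the myoblast library with the previous one and the homeostatic libraries with the injury comparison, so the 3 are not independent. All 5 H1 genes were called higher. Of these, Hist1h1a with 1 UMI at rest and Hist1h1d with 0 were not called by DESeq2 or with thinned cells. Hist1h1b was at 34.7 CPM in myoblasts against 0.290 and 0 CPM, a ratio by counts of 230 with a counting interval of 41.2 to 9082. Hist1h1c and Hist1h1e rose with log2 fold changes of 1.92 (SE 0.26) and 2.05 (SE 0.31). Hist3h2a (log2 fold change 2.90, SE 0.30), Hist1h4i (3.16, SE 0.33) and Hist1h2bc (1.12, SE 0.24) were called higher as well.

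The 4 members called lower in myoblasts than in homeostatic MuSCs were Hist4h4, Hist1h4h, Hist1h2al and Hist2h2aa1. Hist4h4 had 3.19 and 1.90 CPM at rest and 0.786 CPM in myoblasts (log2 fold change -2.08, SE 0.62, edgeR adjusted p = 0.00563). It was not called by DESeq2 or with thinned cells. Hist1h4h had 5.79 and 2.84 CPM at rest and 2.38 CPM in myoblasts (log2 fold change -1.25, SE 0.46, edgeR adjusted p = 0.0207), and was not called by DESeq2, without TMM scaling or without homeostatic MuSC 1. All 4 have near-identical copies, and the groups overlapped for Hist2h2aa1. By tool and setting the number higher was 8 with DESeq2, 7 with thinned cells and 8 without homeostatic MuSC 2; the number lower was 0 with thinned cells and 1 without homeostatic MuSC 1.

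Histone levels were then followed within the dividing groups. In each injured library and in the myoblast library, cells were ranked by the share of their UMIs in a list of 42 S-phase genes without histones. They were divided into 3 tiers of equal size within each library, so the same tier can differ between libraries. In the lower tier the list summed to 1528 and 1141 CPM in injured MuSC 1 and 2 and to 441 CPM in myoblasts. In the upper tier it summed to 4030, 4077 and 3831 CPM in the same order. Summed histone level was 419, 587 and 917 CPM in the lower, middle and upper tier of injured MuSC 1 and 369, 545 and 748 CPM in those of injured MuSC 2, upper-to-lower ratios of 2.19 and 2.03. In myoblasts it was 419 CPM in the lower tier, 193 CPM in the middle and 316 CPM in the upper one, a ratio of 0.754. The myoblast sum thus had its lowest value in the middle tier, while both injured libraries had theirs in the lower tier.

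The classes separated in myoblasts, as values without a test. H1 mRNA was higher in the upper tier of all 3 libraries, with ratios of upper to lower tier of 2.61, 2.55 and 2.36 in injured MuSC 1, injured MuSC 2 and myoblasts. H2A gave 2.92 and 2.74 in the injured libraries and 0.851 in myoblasts. H2B gave 1.22 and 1.02 in the injured libraries and 0.138 in myoblasts, where the lower tier had 253 CPM and the upper 34.9 CPM. H4 gave 1.39, 1.48 and 1.89. H3 gave 2.44 and 0.633 in the injured libraries, on 18 to 56 UMIs per tier, and 1.19 in myoblasts.

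**Figure D4:**
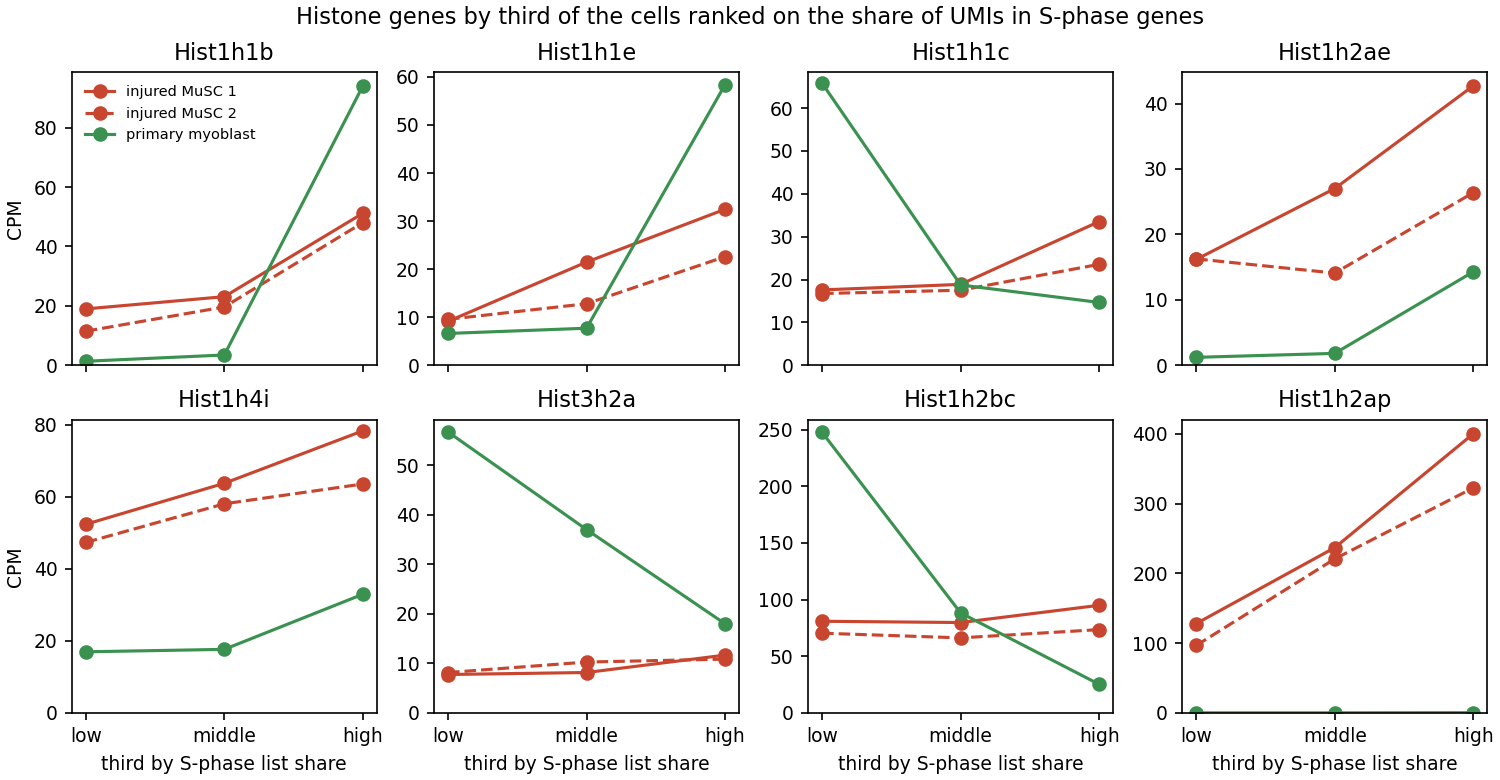
CPM (vertical axis) of 8 members in the lower, middle and upper tier (low, middle and high) of cells ranked by their share of UMIs in S-phase genes, with injured MuSC 1 (solid) and 2 (dashed) and primary myoblasts in separate colours; each panel has its own axis from 0. In myoblasts Hist1h1b goes from 1.35 to 94.0 CPM across the tiers while Hist1h2bc goes from 248 to 25.2 CPM.

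Single genes behind these sums differed in direction in myoblasts. Hist1h1b stood at 1.35, 3.47 and 94.0 CPM in the lower, middle and upper tier of myoblasts, on 50, 126 and 3759 UMIs. Hist1h1e stood at 6.62, 7.71 and 58.4 CPM and Hist1h2ae at 1.22, 1.82 and 14.3 CPM. These 3 are concentrated in the upper tier. Hist1h2bc stood at 248, 88.2 and 25.2 CPM, Hist1h1c at 65.8, 18.7 and 14.7 CPM and Hist3h2a at 56.7, 37.0 and 18.0 CPM, so these 3 have their highest level in the tier with the fewest S-phase UMIs. Resting MuSCs carried all 3, and also Hist1h1e and Hist1h4d, which went the other way in myoblasts, the latter at 1.78, 1.79 and 9.36 CPM.

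In injured MuSCs the tiers of these genes were as follows. Hist1h1b stood at 19.0, 23.1 and 51.2 CPM in injured MuSC 1 and at 11.5, 19.6 and 48.0 CPM in injured MuSC 2. Hist1h2ap stood at 128, 237 and 400 CPM in the first and at 96.6, 221 and 323 CPM in the second. Hist1h2bc had 80.9, 79.7 and 94.9 CPM and 70.3, 66.2 and 73.5 CPM. Hist1h1c had 17.6, 18.9 and 33.5 CPM and 16.7, 17.5 and 23.5 CPM, highest in the upper tier where myoblasts were highest in the lower one.

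Tested over the 3 libraries with library as a block, 0 of 19 tested members were called in either direction between the upper and the lower S-phase tier by edgeR, where 0.0297% of all 10115 genes tested were called higher, 0.0297% lower and 0.0593% either way. At an unadjusted p under 0.05 there were 12, all higher in the upper tier, against 16.8% of all genes in either direction, and DESeq2 called 8 of 63 higher, against 0.770% of the 18180 genes it was run on. The lowest edgeR adjusted p was 0.0732, for Hist1h2ap (log2 fold change 1.76, SE 0.23). For Hist1h1e the edgeR adjusted p was 0.0978, and Hist1h1b had a log2 fold change of 3.23 (SE 0.97, adjusted p = 0.202 by edgeR). Without the myoblast library 11 members were called higher, among them Hist1h1b, Hist1h1c, Hist1h2ap and Hist1h4i, where 5.28% of all genes were called higher. The call thus depended on the library, on the tool and on the filter, since 11 were called without the count minimum.

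Markers of differentiation moved with the tiers. In myoblasts the 10 mature myofibre markers summed to 9042 CPM in the lower S-phase tier, with UMIs for all 10, and to 928 and 668 CPM in the middle and upper tier, with UMIs for 9. Myog, the transcription factor of differentiating myoblasts, stood at 1447, 214 and 130 CPM. In injured MuSC 1 and 2 the myofibre markers stood at 439 and 594 CPM in the lower and 152 and 237 CPM in the upper tier. Their part in the tier differences of Hist1h2bc, Hist1h1c and Hist3h2a was not tested. Median depth per cell was 23815 UMIs in the lower and 27027 in the upper tier of myoblasts.

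Ranking the cells instead by a list of 48 genes of G2 and mitosis gave 0 of 17 tested members called by edgeR, against 0.0789% higher, 0.335% lower and 0.414% either way of all 10139 genes tested; 6 had an unadjusted p under 0.05 (5 higher and 1 lower, against 14.6% of all genes either way) and DESeq2 called 0. Summed histone level was 516, 803 and 586 CPM in injured MuSC 1, 433, 639 and 574 CPM in injured MuSC 2 and 361, 186 and 380 CPM in myoblasts from the lower to the upper tier. Both injured libraries were highest in the middle tier, myoblasts lowest there. In myoblasts Hist1h1b was at 1.501 CPM in the lower and 95.9 CPM in the upper tier, and Hist1h2bc at 207 and 57.2 CPM.

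Within total muscle, the myogenic-like cells had the lowest sum of the 12 named cell classes, 72.2 CPM ± 1.70 (SD, n = 2). Mature myofibre-like cells had the highest, 636 CPM ± 12.6 (SD, n = 2) over 95 cells, followed by glial-like cells with 414 ± 137 and T or NK-like cells with 387 ± 2.82. Fibro-adipogenic-like cells were at 107 CPM ± 12.9 (SD, n = 2). No test was run between classes.

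In mature myofibre-like cells Hist1h2bc was at 318 and 314 CPM and Hist1h1c at 187 and 171 CPM in total muscle 1 and 2, while Hist1h1b had 0 UMIs in both. Elsewhere Hist1h1b had UMIs in both libraries of 3 classes: B-like cells with 5 and 3 UMIs (6.63 and 3.26 CPM), T or NK-like cells with 3 and 17 UMIs (4.65 and 24.6 CPM) and macrophage or monocyte-like cells with 4 and 8 UMIs (10.5 and 17.8 CPM). Hist3h2a was highest in B-like cells, at 66.3 and 70.7 CPM. It stood at 0 and 11.1 CPM in the myogenic-like cells of the same libraries.

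**Figure D5:**
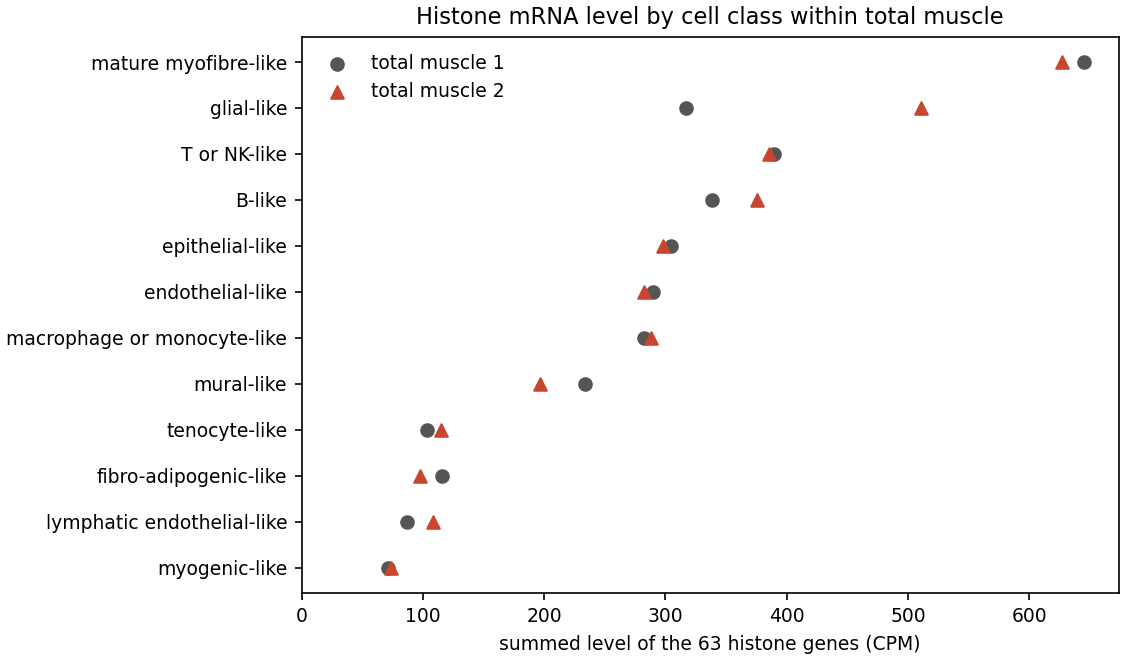
Summed level of the 63 members in CPM for each named cell class of total muscle 1 (circles) and total muscle 2 (triangles). Myogenic-like cells lie lowest at 71.0 and 73.4 CPM and mature myofibre-like cells highest at 645 and 627 CPM.

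Genes that process histone mRNA were followed beside the members. Of 18 tested genes of a list of 19 for histone pre-mRNA 3' end processing, 12 were called higher and 1 lower in injured than in homeostatic MuSCs. Of all genes tested, 38.3% were called higher and 37.2% lower. The median log2 fold change was 0.90 against 0.03 over all genes. Slbp, the stem-loop binding protein, went from 53.9 and 49.3 to 220 and 194 CPM (edgeR adjusted p = 2.29e-08) and stood at 17.8 CPM in myoblasts. Snrpf and Snrpg, ring proteins shared by spliceosomal and U7 particles, rose from 464 and 508 to 1424 and 1410 CPM and from 359 and 337 to 1350.2 and 1249.7 CPM, and Snrpb did not pass the test (log2 fold change 0.02, SE 0.14). Snrpf, Snrpg and Slbp match 1, 3 and 1 annotated pseudogenes over at least 90 bases, and Snrpb none, and the part of counting in the rise was not tested. In myoblasts against injured MuSCs, 4 of 18 were called higher and 6 lower, next to 34.2% and 25.5% of all genes.

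Genes listed as replication-independent variants, most of which are polyadenylated and made outside S phase too, showed both patterns. Of 11 tested, 9 were called higher after injury and 0 lower, next to 38.3% and 37.2% of all genes tested. H2afz, the gene for H2A.Z, went from 251 and 274 to 3301 and 3238 CPM and stood at 247 CPM in myoblasts. It matches 2 annotated pseudogenes, and since the "-ps" genes of the injured libraries moved the same way, the part of counting in its level was not tested. H3f3b and H3f3a, which encode H3.3, did not pass the test after injury, with log2 fold changes of 0.13 (SE 0.12) and -0.07 (SE 0.13), and match 2 and 17 pseudogenes. In myoblasts against injured MuSCs, 1 of the 11 was called higher and 7 lower, next to 34.2% and 25.5% of all genes.

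Histone chaperones, which carry newly made histones to DNA, were tested as a list of 22. After injury 14 were called higher and 6 lower (median log2 fold change 0.92), next to 38.3% and 37.2% of all genes tested. Npm1, Set and Nap1l1 rose with 1.36 (SE 0.17), 2.18 (SE 0.14) and 1.92 (SE 0.15). They match 4, 6 and 1 annotated pseudogenes over at least 90 bases, and the part of counting in these rises was not tested. Of the S-phase list, 41 of 42 were called higher and 0 lower after injury (median log2 fold change 3.16), and its most abundant genes Rrm2, Pcna and Tipin rose with 4.68 (SE 0.17), 0.62 (SE 0.14) and 3.11 (SE 0.16). Of the list for G2 and mitosis, 45 of 47 tested were called higher and 1 lower, with a median of 6.75, and Cks1b, Anp32e and Cks2 rose with 4.48 (SE 0.16), 0.74 (SE 0.14) and 4.77 (SE 0.18). In myoblasts against injured MuSCs, 0 of the 42 S-phase genes were called higher and 22 lower. There, 9 of the 48 genes of G2 and mitosis were called higher and 21 lower, next to 34.2% and 25.5% of all genes.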

How the data were processed

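The authors deposited 1 matrix of UMI counts for each of the 7 droplet 3' libraries; its values are whole numbers, unnormalized, per the file headers. Build mm10 is listed, with Seurat 2.3.4, bcl2fastq 2.17.1 and Cell Ranger 2.2.0, in the submitters' processing notes. The role of each and the annotation are not given in the sources used here. Cells with at least 200 genes and at most 10% mitochondrial UMIs were kept. Scrublet marked 57 of 15267 cells (0.373%), too few to have worked, so doublets count as not removed. Clusters came from scanpy 1.11.5 (2000 variable genes, 30 components, 20 neighbours) and leidenalg 0.10.2 at resolution 1. The markers were fixed, but the naming rule was changed after the clusters were seen: most markers among the top 10 genes against total muscle clusters that hold under 5% of each sorted or cultured library, at least 3 markers raised, the list with the largest share of raised markers where no marker was among the 10, and unnamed where depth was under the limit and no marker led.

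UMI counts were added up over the myogenic-like cells of a library and tested with edgeR 4.0.16 in R 4.3.3 (quasi-likelihood test, TMM scaling, filterByExpr, Benjamini-Hochberg adjustment over all genes tested, threshold 0.05). Both myoblast comparisons came from a single fit of homeostatic, injured and myoblast libraries, and tiers of cells used library as a block. DESeq2 1.42.0 was an alternative. CPM values are without TMM scaling. Bounds use 3 counts over the group. Copies were found with blastn 2.17.0. Same-numbered libraries of homeostatic and injured MuSCs did not deviate together (correlation -0.039).

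Named members are the 3 highest of each class over the groups and the 4 largest called rises and falls of at least 10 CPM per comparison; other names account for counts or were chosen after their values were seen, among them Slbp, and Hist1h1c, Hist1h2bc and Hist3h2a for the tiers. Members and lists were chosen with earlier results of these data known. Alternatives were other scaling and filtering, thinning to 1000 UMIs, all cells, no shared barcodes and leaving out libraries.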

Additional observations from a re-analysis of the deposited data

Results flagged for a closer look

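Some genes pointed one way across the tiers in both injured libraries and the other way in myoblasts. The difference between the groups was not tested. Tiers were cut within each library. The lower S-phase tier held 1528 and 1141 CPM of S-phase genes in injured MuSC 1 and 2, against 441 CPM in myoblasts. The ratios therefore span different ranges of S-phase level. With cells ranked by S-phase share, the ratio of the upper to the lower tier was 0.223 for Hist1h1c in myoblasts against 1.91 and 1.41 in injured MuSC 1 and 2. It was 0.102 for Hist1h2bc in myoblasts against 1.17 and 1.05. It was 0.317 for Hist3h2a in myoblasts against 1.51 and 1.33.

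With cells ranked by genes of G2 and mitosis, the ratio was 1.72 for Hist1h2bk in myoblasts against 0.695 and 0.767 in injured MuSC 1 and 2, and 1.59 for Hist2h4 against 0.772 and 0.767. It was 0.436 for Hist1h4h in myoblasts against 1.08 and 1.15. In the injured libraries these 3 rest on 2 to 10 UMIs per tier. The ranking list summed to 1980 and 1477 CPM in the lower tier of injured MuSC 1 and 2, against 630 in myoblasts.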

How the results depend on the processing

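Over 312 recomputed values of 30 called log2 fold changes of named members, 292 kept their direction and call, 20 kept the direction and lost the call, and 0 changed sign. Named members not called did change sign: in myoblasts against injured MuSCs, Hist1h1b ranged from -0.68 to 0.28, Hist1h1c from -0.21 to 0.62, Hist1h1e from -0.44 to 0.48 and Hist1h2bc from -0.32 to 0.61. After injury, members called higher numbered 42 without the filter on low counts and 11 with cells thinned to 1000 UMIs, and from 17 to 32 when a library was left out; members called lower numbered 1 without TMM scaling, 1 without the filter and from 0 to 1 with a library left out. The replicate block gave 22 higher and 0 lower, as without it, and 0 and 0 for homeostatic MuSCs against total muscle. That comparison gave 8 lower with all cells that pass the filters, where the other cell types of total muscle enter, and from 0 to 1 higher with a library left out. For myoblasts against injured MuSCs, the number higher was 0 with DESeq2 and 3 without TMM scaling, and the number lower 9 with thinned cells and from 17 to 30 with a library left out. Myoblasts against homeostatic MuSCs gave 8 higher with DESeq2, 7 higher and 0 lower with thinned cells, and from 8 to 12 higher and from 1 to 4 lower with a library left out. The upper against the lower S-phase tier gave 8 higher with DESeq2, 11 without the filter, 3 with thinned cells and from 0 to 11 with a library left out. The tiers by G2 and mitosis gave 3 higher and 1 lower without the filter, 1 higher with thinned cells, and from 0 to 1 in each direction with a library left out. Settings also differed in which members had enough counts to be tested, so a missing call is not always a failed test. The causes were not tested. The 56 histone UMIs in myogenic cells of total muscle limit every comparison with that group.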
